A study of Mus musculus with 3 samples.

Results

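The AP-1 transcription factors were followed as 8 genes, Fos, Fosb, Fosl2, Jun, Junb, Jund, Atf3 and Batf3, found by their symbols among the 31053 genes of the count tables. All 8 were listed in every run. The study collected tdTomato-positive myeloid cells from both hippocampi of mice that carried Cx3cr1CreERT2/+, Rosa26tdTomato/+ and NestinTK-eGFP/+, with no group lacking an allele. Tamoxifen at 100 mg/kg on 4 days in a row switched on tdTomato wherever the Cx3cr1-driven Cre was active, which is in microglia and also in other macrophages of the brain. The cells were counted by 10x Genomics single-cell RNA sequencing in 3 runs that share 1 label. The series drew on 6 male and 6 female mice, but the labels neither assign animals to runs nor give their age. Spread between runs may therefore be technical. The p-values here measure only variation over the runs, which with the run as block is what each run's own level leaves. The fits share it over all genes, in part or wholly.

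AP-1 is a dimer of basic leucine zipper proteins. FOS proteins bind DNA only with a JUN partner, whereas JUN proteins also pair with each other and with ATF and BATF proteins. Fos, Fosb, Jun, Junb and Atf3 are immediate early genes, whose RNA appears shortly after a stimulus through transcription factors already present in the cell, while Jund RNA is usually held at a steadier level. In microglia and other macrophages the family is known for its part in the induction of cytokines and chemokines.

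Run 3 stood apart for these genes. After cells with under 1000 UMIs (counted RNA molecules), under 500 genes or over 10% mitochondrial UMIs were left out, runs 1, 2 and 3 held 6993, 6720 and 6078 cells with a median of 4425, 3438 and 3696 UMIs. Marker genes sorted 6568, 6473 and 5811 of these into reference microglia. These cells missed the threshold of every other gate, but could hold some UMIs of other gates' markers, such as Ccl3 and Ccl4. Each cell held at least 3 of 10 microglial markers, and the cells together held all 10 markers. Tmem119, one of these, was at 1913, 2846 and 2104 CPM, a gene's share of the summed UMIs of a run and population scaled to a common total, which is the unit of all levels here. The median mitochondrial share of the kept cells was 2.62%, 2.11% and 2.59%. Cells with UMIs of both Xist and a Y-linked gene, a sign of 2 cells under 1 barcode, numbered 237, 113 and 173. Between 7 and 8 barcodes were shared by any 2 runs.

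The gene bodies are given on GRCm38 from GENCODE M21. Among the FOS genes, Fos (ENSMUSG00000021250) lies on the plus strand at chr12:85473890-85477273, Fosb (ENSMUSG00000003545) on the minus strand at chr7:19302696-19310051 and Fosl2 (ENSMUSG00000029135) on the plus strand at chr5:32135801-32157842. Of the JUN genes, Jun (ENSMUSG00000052684) is at chr4:95049034-95052222 on the minus strand, Junb (ENSMUSG00000052837) at chr8:84974484-84978718 on the minus strand and Jund (ENSMUSG00000071076) at chr8:70698949-70700616 on the plus strand. Atf3 (ENSMUSG00000026628, chr1:191170296-191218039, minus strand) and Batf3 (ENSMUSG00000026630, chr1:191097847-191108945, plus strand) are neighbours. Annotated genes on the opposite strand overlap 4 members, Junos in Jun, Gm11175 in Jund, Prdx2 in Junb and Gm24748 in Atf3. The sources used here do not state whether counting used strand, so reads of such pairs may not have been told apart.

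The 250 bases upstream of the RefSeq start (GRCm38.p6) are shown for the members on which the results below turn, Fos, Jun and Junb, which were high in run 3, and Atf3, which was high in the chemokine-rich cells. Each reads 5′ to 3′ on the strand of its gene. Capitals mark TGACG on either strand (the core of the cAMP response element, CGTCA when read on the other strand), TATAAA and, in Jun, the variant TGACATCA. The windows are chr12:85473640-85473889 for Fos, chr4:95052223-95052472 for Jun, chr8:84978749-84978998 for Junb and chr1:191183334-191183583 for Atf3. The RefSeq start of Atf3 lies inside the GENCODE gene span given above, and positions in its window count from that internal start.
Fos: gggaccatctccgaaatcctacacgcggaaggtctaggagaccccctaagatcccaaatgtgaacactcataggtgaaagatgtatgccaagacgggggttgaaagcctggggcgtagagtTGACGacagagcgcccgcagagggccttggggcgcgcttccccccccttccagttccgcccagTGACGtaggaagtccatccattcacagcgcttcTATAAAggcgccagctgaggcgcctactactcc
Jun: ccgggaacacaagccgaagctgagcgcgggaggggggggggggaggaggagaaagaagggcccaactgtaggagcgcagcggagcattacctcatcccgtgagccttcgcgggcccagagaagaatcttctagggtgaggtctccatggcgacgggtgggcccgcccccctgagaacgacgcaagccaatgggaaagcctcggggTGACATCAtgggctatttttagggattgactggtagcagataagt
Junb: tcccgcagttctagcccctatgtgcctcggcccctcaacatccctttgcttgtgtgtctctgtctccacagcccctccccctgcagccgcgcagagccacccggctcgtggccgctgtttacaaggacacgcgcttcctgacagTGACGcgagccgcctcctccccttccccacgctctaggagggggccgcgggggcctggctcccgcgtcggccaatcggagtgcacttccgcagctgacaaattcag
Atf3: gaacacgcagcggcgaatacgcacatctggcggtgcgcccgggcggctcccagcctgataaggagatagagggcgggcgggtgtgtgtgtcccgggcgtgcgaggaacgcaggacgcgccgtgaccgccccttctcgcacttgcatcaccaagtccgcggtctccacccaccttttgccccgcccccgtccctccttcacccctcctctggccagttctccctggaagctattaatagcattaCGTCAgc
Fos held TGACG at -129 and -66, counted from the start, and TATAAA at -33. Junb held TGACG at -106, Atf3 its reverse complement at -7, and Jun TGACATCA at -45. Among 32851 RefSeq promoters of the same length, TGACG was present on either strand in 17.8%, TATAAA in 12.4% and TGACATCA in 2.93%. The whole element TGACGTCA, present in 1.55% of promoters and containing that core, and the AP-1 site TGANTCA, present in 6.75%, were in none of the 8 members' windows, of which that of Jund ends over 1 kb before the GENCODE gene start. GC content was 58.4% for Fos, 61.2% for Jun, 66.4% for Junb and 65.2% for Atf3, against a median of 52.4% over all promoters. These matches describe the sequence and say nothing on binding.

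Fos, the partner that forms the classical dimer with Jun, was nearly absent from reference microglia of 2 runs and present in the other. Its level was 0.294, 0.214 and 53.4 CPM in runs 1, 2 and 3, from 9, 5 and 1207 UMIs. Run 3 was 210-fold above the mean of the other runs, a ratio that rests on the few UMIs of runs 1 and 2. Fosb, a FOS protein of the same immediate early class, had 0 UMIs in runs 1 and 2 and 63 UMIs in run 3, or 2.79 CPM. Against a floor of 3 UMIs over runs 1 and 2 together, run 3 was at least 50.2-fold higher. Fosl2, which encodes the FOS-related protein FRA2, stood at 5.78, 3.85 and 9.96 CPM, so that run 3 was again highest, by 2.07-fold over the mean of the other runs.

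All JUN genes were also highest in run 3. Jun, the main partner of Fos, measured 99.9, 189 and 1163 CPM, and Junb, which can oppose or replace Jun in the dimer, 197, 255 and 762. Jund, the constitutive JUN gene, measured 244, 294 and 596. Runs 1 and 2 lay close together for Junb and Jund and further apart for Jun. The remaining members varied less: Atf3, a stress-induced ATF gene that often represses its targets, had 11.9, 19.4 and 21.8 CPM, and Batf3, a small zipper protein best known from dendritic cells, had 48.2, 51.8 and 57.4. Here run 2 lay nearer to run 3 than to run 1 for Atf3, and the runs could hardly be separated for Batf3.

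**Figure D1:**
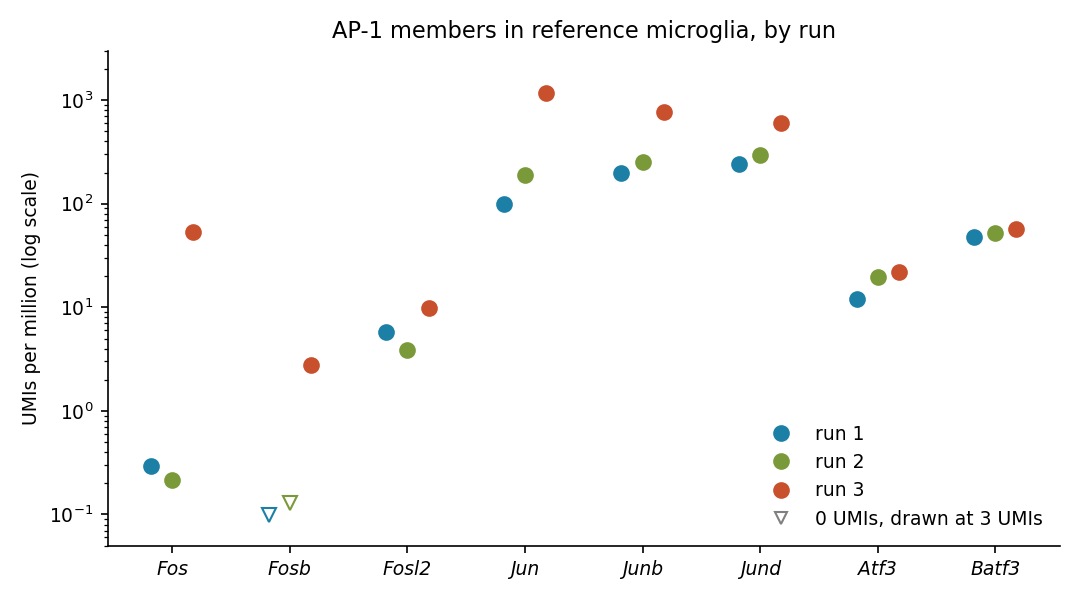
Level of each AP-1 member in reference microglia, in CPM on a log axis, with 1 point for each run; triangles stand for runs with 0 UMIs, drawn at the level of 3 UMIs. Run 3 lies far above runs 1 and 2 for Fos, Fosb and Jun, moderately above for Junb and Jund, and next to them for Atf3 and Batf3.

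On the scale of log2(CPM + 1), run 3 exceeded the mean of runs 1 and 2 by 5.44 for Fos, 3.00 for Jun, 1.92 for Fosb, 1.75 for Junb, 1.14 for Jund, 0.91 for Fosl2, 0.45 for Atf3 and 0.20 for Batf3. The median over the 9400 genes with a mean of at least 5 CPM over the 3 runs was 0.04. Fos ranked 2, Jun 5, Junb 20 and Jund 48 among those genes, while Atf3 ranked 521 and Batf3 2481. On this scale, which is used for every 2-fold count below, 4 of the 7 members above that level were at least 2-fold higher in run 3, with Fosb, at its low level, as the fifth, beside 0.532% of all such genes. The same share was 0.34% for run 1 and 0.0851% for run 2, and no member was 2-fold higher in either. Fos and Fosl2 reached the 5 CPM level only through run 3. The rank of Fos and its place in the count therefore depend in part on that filter. The 3 runs carry the same label, so these differences were described and not tested.

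Some other immediate early genes stood with them. Of 14 early genes outside AP-1 at that level, 5 were at least 2-fold higher in run 3 (list median 0.59), among them the zinc finger gene Egr1, ranked 1 with 1.31, 1.37 and 284 CPM in runs 1, 2 and 3. Egr1, like Fos, reached that level only through run 3, as did Dusp1. Btg2, an antiproliferative early gene, measured 224, 232 and 1176, and Ier2 11.2, 18.5 and 112. Of 11 genes of negative feedback, such as the phosphatase Dusp1 and the RNA-decay factor Zfp36, 3 were at least 2-fold higher (median 0.46). None of 24 dimer partners and related bZIP genes (median 0.14), 21 upstream kinases and factors (0.17), 9 heat shock genes (-0.02) or 12 homeostatic microglial genes (-0.18) was. Among 10 genes linked to AP-1 as targets, 2 were, the chemokines Ccl3 (1.75) and Ccl4 (1.36), with a list median of 0.14.

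The share of cells with a UMI was then counted, a share that moves with the level of a gene and so does not compare the spread of one gene over cells with that of another. With every reference cell thinned to 2000 UMIs, and 75, 361 and 163 shallower cells left out, Jun had a UMI in 16.3%, 28.8% and 70.0% of the cells of runs 1, 2 and 3, against 31.5%, 41.4% and 80.9% before thinning. Junb had one in 30.0%, 37.1% and 60.2%, and Jund in 36.2%, 43.1% and 60.3%. Fos was found in 0.0154%, 0.0491% and 6.36% of thinned cells, the last with an exact binomial 95% interval of 5.73% to 7.02% that covers counting error only. For comparison, Ttr, a choroid plexus transcript that microglia should lack, had a UMI in 2.85%, 1.47% and 1.88% at the same depth. Over all kept cells Ttr varied by run, at 457, 868 and 100 CPM, and its share sets no background for another gene. The Fos shares of runs 1 and 2 lay under the Ttr share of the same run and that of run 3 above it. The shares of Atf3, 2.16%, 3.34% and 4.04%, lay below the Ttr share in run 1 and above it in runs 2 and 3. In run 3, 17.8% of thinned cells held at least 5 Jun UMIs, 8.07% at least 5 Junb UMIs and 0.283% at least 5 Fos UMIs.

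The pattern over runs was compared between 9 gated populations, named by the markers that gated them and holding between 12 and 84 cells in a run outside reference microglia. With at least 10 UMIs over the runs required, Jun was at least 2-fold higher in run 3 in 9 of 9 populations, by 1.85 to 3.44 on the log2 scale. Junb was so in 8 of 9 populations, border macrophages being the exception at 0.89, and Jund in 5 of 9. Fos had enough UMIs in 5 populations and was at least 2-fold higher in run 3 in each, and Fosb in 2 of 2. Atf3 was so in 2 of 6 populations and lower in run 3 among Ccl3 Ccl4-high cells (-0.89). Some of these reached 10 UMIs only through run 3. They were Fosb in both populations, Fos in MHC class II-high and astrocyte-transcript cells, and Atf3 in MHC class II-high cells. For Batf3, 2 of 9 populations were 2-fold higher and 1 was 2-fold lower. In small populations such folds are common. Of all genes, the share at least 2-fold higher in run 3 was 8.34% in border macrophages, 11.1% in interferon-responsive, 11.8% in both MHC class II-high and disease-associated, 13.9% in Ccl3 Ccl4-high and 14.9% in cycling cells. It was 17.8% in cells with Emp3, Fxyd5 and Tnfsf13b and 20.9% in cells with astrocyte transcripts.

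**Figure D2:**
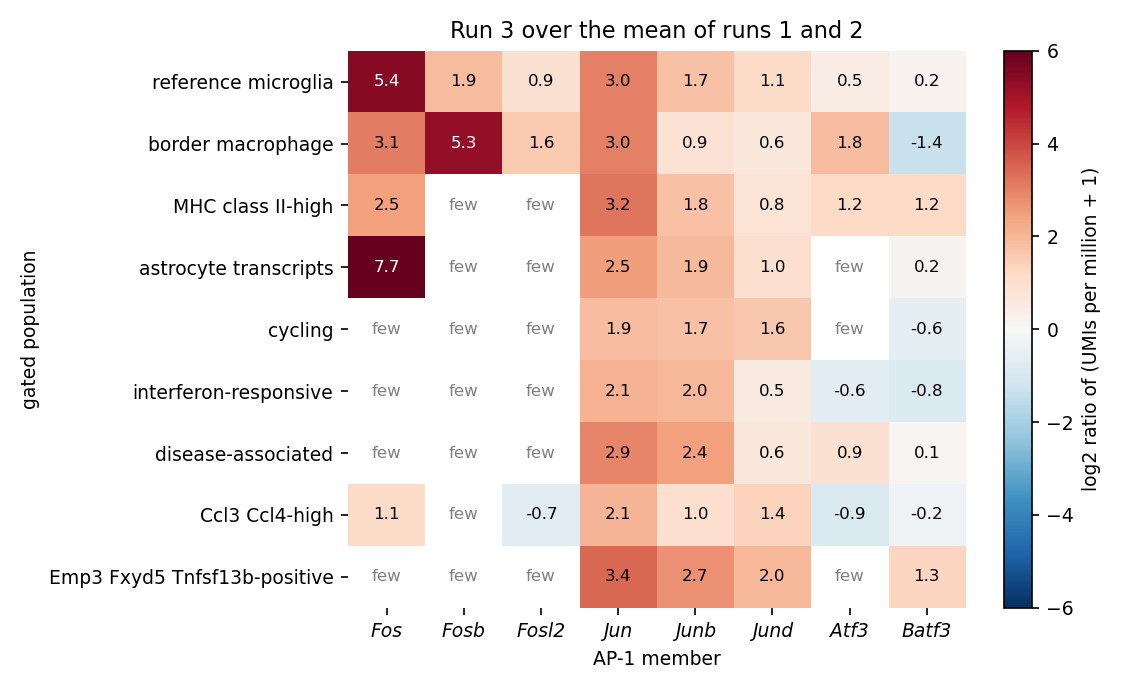
Log2 ratio of run 3 over the mean of runs 1 and 2 (CPM + 1) for each AP-1 member (columns) in each gated population (rows); red is higher in run 3, blue lower, and cells marked few had under 10 UMIs in the 3 runs together. The Jun column is red from 1.85 to 3.44 in every population, while Atf3 and Batf3 change sign between populations.

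Within reference microglia, the members were then read against other early genes of the same cell. Each thinned cell was classed by its UMIs of Egr1, Ier2, Nr4a1, Btg2, Dusp1 and Ier5 together, a sum that holds no AP-1 member. In run 3, Fos measured 6.54, 9.99, 28.1 and 154 CPM in cells with 0, 1 to 2, 3 to 5 and at least 6 such UMIs. Jun measured 461, 647, 1099 and 2241, Junb 326, 375, 699 and 1526, and Jund 338, 406, 567 and 1010 over the same classes. Level and class went up together for these members at every step. Atf3, by contrast, read 22.9, 23.4, 18.8 and 23.2, and Batf3 59.6, 57.8, 59.6 and 63.8, with no trend.

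Cells of run 3 without any of these early UMIs still held more Jun than the corresponding cells of the other runs. In that class Jun measured 87.7, 175 and 461 CPM in runs 1, 2 and 3, Junb 188, 247 and 326, and Jund 224, 279 and 338. In the class with 3 to 5 early UMIs, Jun stood at 109, 236 and 1099, so cells of equal early count differed by run. An equal count was not an equal mix of early genes. In run 1 reference cells the sum was mostly Btg2 (224 CPM) and Ier5 (244), with Egr1 at 1.31. In run 3 Egr1 was at 284 and Ier2 at 112. The class with at least 6 held 8, 17 and 1489 cells, or 26.4% of the run 3 cells. These cells carried 77.6% of the run's Fos UMIs, 87.5% of its Fosb UMIs and 50.9%, 53.1% and 44.5% of its Jun, Junb and Jund UMIs, but 27.7% and 28.0% of its Atf3 and Batf3 UMIs. With them left out of all runs, run 3 still read 17.1 CPM for Fos, 780 for Jun, 498 for Junb and 455 for Jund. The number of members at least 2-fold higher in run 3 went from 5 to 3, with Jund at 0.76 on the log2 scale.

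**Figure D3:**
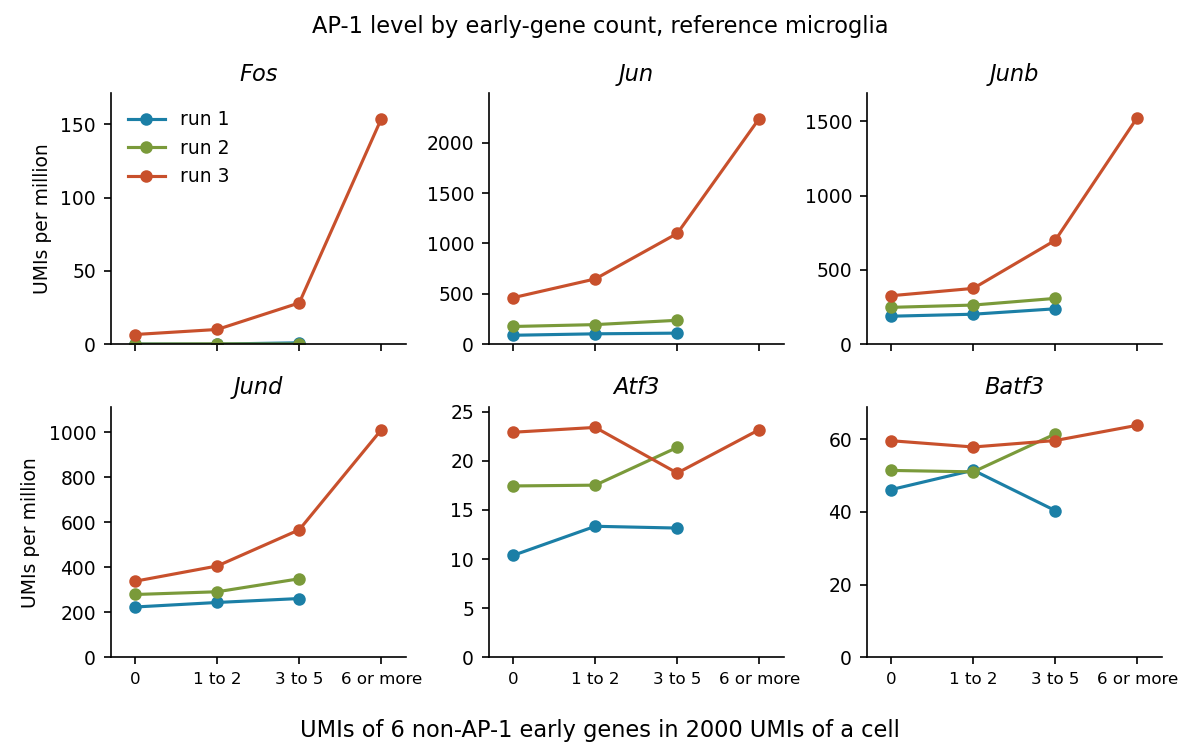
Level of 6 AP-1 members (CPM) in reference microglia grouped by the UMIs of 6 early genes outside AP-1 in 2000 UMIs of a cell, with 1 line for each run and only classes of at least 20 cells. In run 3, Fos climbs from 6.54 to 154 and Jun from 461 to 2241, whereas Atf3 stays between 18.8 and 23.4.

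Across the 5648 thinned reference cells of run 3, counts of Jun and Junb correlated with Pearson r 0.43. The sum of the 6 early genes correlated at 0.54 with Jun and with Junb, 0.39 with Jund, 0.31 with Fos, 0.01 with Atf3 and 0.00 with Batf3. The cells share 1 library and 1 depth, and the values are descriptive.

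To compare cells inside a run, the reference cells with most early UMIs, at most 10% of a run's cells, were set against the rest of the same run. This gate took 578, 254 and 448 cells, at cuts of 3, 4 and 12 early UMIs. Egr1 had 14, 14 and 1279 UMIs in these cells, so the early genes behind the gate differed by run. By edgeR's quasi-likelihood test with the run as block and Benjamini-Hochberg adjustment, 4 of 7 tested members were higher, beside 0.372% of all 10748 genes tested. Fosb did not pass the filter on low counts. Fos was 0.865, 5.91 and 283 CPM in the early-rich cells of runs 1, 2 and 3 and 0, 0.0854 and 32.3 in the others, from 1, 3 and 254 UMIs in the early-rich cells. The fitted log2 difference was 3.22 ± 0.18 (SE, adjusted p = 3.05e-17). It rests almost wholly on run 3 and does not show agreement between runs. Jun read 107, 270 and 2978 in the early-rich cells against 95.9, 190 and 1006 (log2 difference 0.95 ± 0.13, adjusted p = 4.25e-06). Junb was higher by 0.92 ± 0.13 (adjusted p = 1.18e-05), and Jund by 0.67 ± 0.11 (adjusted p = 0.000198). All 3 JUN genes were higher in the early-rich cells of every run, with a far larger gap in run 3. The errors here draw mostly on the spread shared over genes, with 37.8 prior against 2 residual degrees of freedom. They do not measure how far a member's gap differed between runs.

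Fosl2 (0.49, adjusted p = 0.936), Atf3 (0.35, 0.927) and Batf3 (0.05, 0.995) did not pass the test. Run 3 carried much of the result: without it, an alternative chosen after seeing the data, 1 member remained past the threshold, Junb at 0.31 (adjusted p = 0.0314). Jun then stood at 0.29 (adjusted p = 0.305) and Jund at 0.21 (0.379), and Fos had too few UMIs to be tested. A single cut for all runs, at least 6 early UMIs, also gave 4 of 7 members (background 0.561%), Fos at 3.34, Jun at 1.24 (adjusted p = 0.0444), Junb at 1.20 (0.0306) and Fosl2 at 1.07 (0.0329). It left 8 and 17 cells in runs 1 and 2, and 28.3% of its calls were false in simulated data, against 1.8% for the gate within runs. The simulation gave all genes 1 common spread and the same change in every run. It therefore does not give the false share among the real calls of either gate. The single-cut fit and the within-run fit without run 3 took their spread wholly from the trend over all genes. Their p-values hold no spread of the member itself.

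Other genes followed in the same cells. Of 11 early genes outside AP-1 and outside the gate, 3 were higher: Klf2, a factor of quiescence, by 1.66 ± 0.19 (adjusted p = 1.21e-07), Ier3 by 1.58 and Klf6 by 0.60. Feedback genes gave 5 of 10 higher, among them Zfp36 by 1.14, the cytokine signalling inhibitor Socs3 by 1.19 and the NF-κB inhibitor Nfkbia by 0.49. Of 13 AP-1 linked targets 3 were higher, with Ccl3 at 1.76 and Ccl4 at 1.51, and of 25 partners 1, Atf4 at 0.41. No gene of the 22 upstream, 9 heat shock or 12 homeostatic genes passed in either direction. Klf2 read 46.7, 19.7 and 401 CPM in the early-rich cells of runs 1, 2 and 3. Over all genes tested, 39 passed as higher and 1 as lower. Without run 3 these numbers were 8 and 34, so the upward calls depend on that run.

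Populations were next compared with reference microglia of the same run, for the 5 populations with at least 20 cells in each run. All 5 comparisons share the reference cells. Of the 8 members 6 passed the filter on low counts, and Fosb and Fosl2 did not. One edgeR quasi-likelihood model with the run as block covered 4472 genes, and adjusted p-values below come from it by the Benjamini-Hochberg method.

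Border macrophages, gated by genes such as Mrc1, Pf4 and Lyve1, held more Fos than reference microglia in every run. The level was 10.8, 141 and 646 CPM in runs 1, 2 and 3, from 9, 22 and 173 UMIs, against 0.294, 0.214 and 53.4 in the reference cells. The log2 difference was 4.68 ± 0.58 (adjusted p = 4.09e-07), and it was 7.54 without run 3, where the reference is almost at 0. Fosb, not tested, had 37.3 CPM in run 3 and 0 UMIs in runs 1 and 2. Border macrophages made up 1.16%, 0.521% and 0.888% of the cells and held 30.0%, 47.8% and 11.6% of the Fos UMIs.

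No JUN gene passed the test there. Jun read 126, 166 and 1198 CPM (log2 difference 0.31, adjusted p = 0.383), Junb 152, 288 and 407 (-0.21, 0.603), and Jund 236, 371 and 470 (0.16, 0.61). Atf3, at 8.42, 25.6 and 63.5, was at 0.76 (adjusted p = 0.332) over all runs and past the threshold without run 1 (1.55, adjusted p = 0.00824). Thus 1 of 6 tested members passed, beside 25.3% of all genes, so the count says nothing particular on the family. Of these border macrophages 26, 1 and 3 held both Xist and Y-linked UMIs, and their median depth in run 1 was 8004 UMIs against 4388 in reference cells. Without such cells Fos was at 4.65.

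Around Fos, several early and feedback genes were higher in border macrophages. Of 15 early genes 6 rose and 3 fell (median 0.81 against -0.02 over all genes), including Klf4 by 2.14 and Ier2 by 1.84. Of 9 feedback genes 6 rose (median 1.07), led by Dusp1, which dephosphorylates MAP kinases, at 3.91 ± 0.38 (adjusted p = 4.73e-09). Of 16 partners 4 rose, such as Cebpb (1.18) and Maf (0.99), and 2 fell. AP-1 linked targets gave 6 higher and 1 lower of 13, with Il1b at 6.46 and Ccl2 at 4.94. Il1b read 18.1, 333 and 14.9 CPM in runs 1, 2 and 3, above its reference in each but by far the most in run 2. Homeostatic microglial genes gave 10 lower of 12, among them Tmem119 at -1.77. The 2 genes Ccl3 and Ccl4, markers of another gate, summed to 74.6, 275 and 885 CPM here against 13.1, 20.4 and 53.8 in reference cells, and their part in the result was not tested.

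Cells high in MHC class II RNA (30, 25 and 39 cells), the antigen-presenting molecules, passed for 3 members. Fos measured 16.7, 22.2 and 113 CPM from 3, 3 and 39 UMIs (log2 difference 2.17 ± 0.82, adjusted p = 0.0431). Atf3 measured 11.1, 44.4 and 63.8 from 2, 6 and 22 UMIs (1.61 ± 0.54, adjusted p = 0.0248), and Batf3 44.5, 44.4 and 104 (0.76 ± 0.28, adjusted p = 0.0385). Batf3 was above its reference in run 3 alone and read 0.05 without that run. Its call was lost in 8 of 12 alternatives, among them the DESeq2 Wald test and a stricter gate. Fos was at 6.18 without run 3, and Atf3 lost the threshold without run 2 (adjusted p = 0.104) or without run 3 (0.351). The 3 of 6 members stand beside 32% of all genes, and none passed without the run as block. Ccl3 and Ccl4 summed to 868, 658 and 134 CPM in these cells, whose part was not tested.

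No tested member passed in interferon-responsive cells (60, 31 and 38 cells), gated by genes such as Ifit3 and Isg15. There 2.66% of all genes passed, 119 in number, and by edgeR 0 of 6 members reached an unadjusted p under 0.05, with 0 past the threshold by DESeq2 as well. Jun read 158, 164 and 677 CPM and Junb 172, 164 and 662, with Jun above its reference cells in run 1 and below them in runs 2 and 3, and Junb below them in each run. Atf3 read 34.4, 31.2 and 21.0. In disease-associated cells (46, 32 and 22 cells), gated by genes such as Spp1, Lpl and Cst7, Atf3 measured 33.9, 90.7 and 116 CPM from 12, 16 and 15 UMIs. It was higher than in reference cells in each run, by 2.11 ± 0.48 (adjusted p = 0.00266), and lost the threshold without run 2 (adjusted p = 0.0837). It was the 1 of 6 members to pass, beside 20.3% of all genes. Heat shock genes gave 6 higher of 8 in the same cells, such as Hsp90ab1 at 1.21, AP-1 linked targets 5 of 12 higher, feedback genes 2 of 9 lower and homeostatic genes 8 of 12 lower. Their summed Ccl3 and Ccl4 was 231, 986 and 768 CPM, whose part was not tested.

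**Figure D4:**
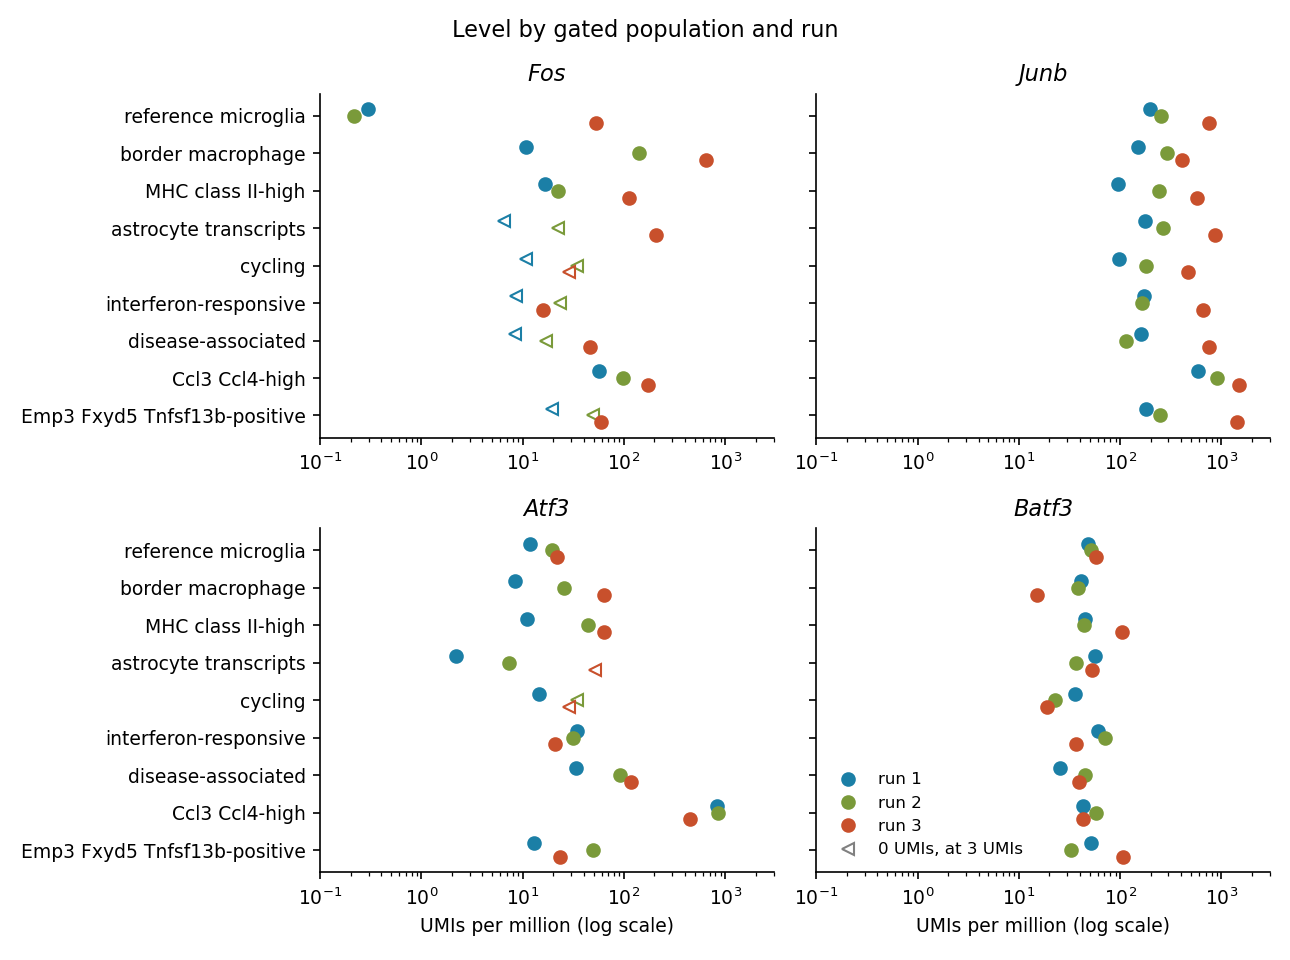
Level of Fos, Junb, Atf3 and Batf3 (CPM, log axis) in 9 gated populations, with 1 point for each run; open triangles stand for 0 UMIs, drawn at the level of 3 UMIs. Fos is highest in border macrophages of runs 2 and 3, and Atf3 lies between 453 and 844 in Ccl3 Ccl4-high cells of every run.

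Most of the tested members passed in Ccl3 Ccl4-high cells, a small set (27, 34 and 46 cells) gated on at least 10 UMIs of these chemokines. Atf3 measured 835, 844 and 453 CPM there, from 117, 131 and 95 UMIs, against 11.9, 19.4 and 21.8 in reference cells. The log2 difference was 5.49 ± 0.30 (adjusted p = 1.16e-12), and it stayed between 5.03 and 5.89 in 12 of 12 alternatives. Runs 1 and 2 were higher than run 3 for Atf3, whereas Jun was highest in run 3. With 0.386%, 0.506% and 0.757% of the cells, the population held 22.2%, 21.1% and 14.7% of all Atf3 UMIs.

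Fos and the JUN genes were higher in these cells as well, while Fosb and Fosl2 were not tested. Fos read 57.1, 96.7 and 172 CPM from 8, 15 and 36 UMIs (log2 difference 3.24 ± 0.78, adjusted p = 0.00838), and 8.02 without run 3. Junb read 593, 896 and 1507 (1.58 ± 0.24, adjusted p = 5.21e-05), above the reference cells of each run. Jun read 328, 342 and 1402 (0.98 ± 0.25, adjusted p = 0.0116). Jund read 407, 284 and 892 (0.60 ± 0.19, adjusted p = 0.0497) and was below its reference in run 2. The Jund call was lost in 5 of 12 alternatives, among them leaving out any 1 run, and the Jun call in 4 of 12. Batf3, with 42.8, 58.0 and 42.9, did not differ beyond the spread (-0.03, adjusted p = 0.974). In all, 5 of 6 tested members passed, beside 8.01% of all genes. Without the run as block 1 of them passed, Atf3, and without run 1 or without run 2 only 3 did.

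The same cells were high in much of the early and target lists. Of 15 early genes outside AP-1, 10 rose and 0 fell (median 1.54), led by Egr3 (9.09 ± 0.76, adjusted p = 8.10e-09), Egr2 (7.35), the nuclear receptor Nr4a1 (7.06) and Gadd45b (6.67). Of 11 AP-1 linked targets left after the gate markers, 7 rose (median 1.82), such as Ccl2 (8.83), Il1b (7.75) and the urokinase receptor gene Plaur (4.30). Feedback genes gave 3 higher and 2 lower of 9, partners 5 higher and 2 lower of 16, with Creb5 at 2.02 and Cebpd at -1.22, and heat shock genes 4 higher of 8. Upstream genes gave 0 of 10 and homeostatic genes 0 of 12. Border macrophage markers were at 0, 6.45 and 9.54 CPM in these cells.

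Atf3 was also read by chemokine level across reference and Ccl3 Ccl4-high cells together, each thinned to 2000 UMIs. With 0, 1, 2 to 4 and at least 5 UMIs of Ccl3 plus Ccl4, Atf3 in run 1 was 9.88, 90.9, 441 and 981 CPM. Run 2 gave 16.7, 33.1, 205 and 953, and run 3 gave 19.8, 30.7, 100 and 317. In each run the level went up at every step, and run 3 was lowest from the second class on. The third class of run 1 held 17 cells. Junb in run 3 went from 722 to 1186, 1322 and 1587, and in run 1 from 199 to 202, 294 and 462, while in run 2 it read 262, 335, 308 and 1094. At the depth of 2000 UMIs, 55.6%, 54.5% and 33.3% of the Ccl3 Ccl4-high cells had an Atf3 UMI.

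**Figure D5:**
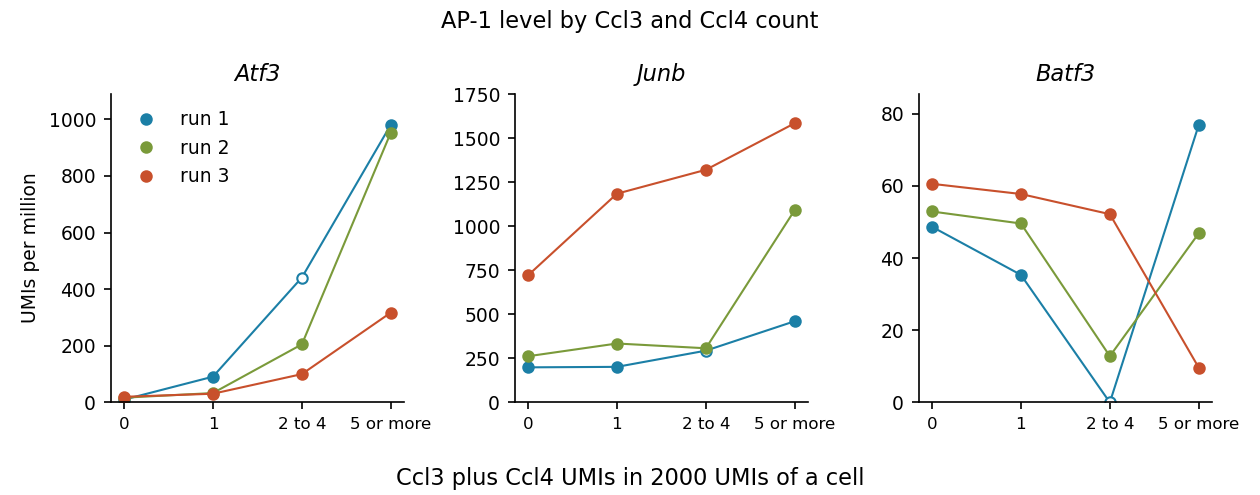
Level of Atf3, Junb and Batf3 (CPM) in reference and Ccl3 Ccl4-high cells grouped by Ccl3 plus Ccl4 UMIs in 2000 UMIs of a cell, with 1 line for each run; open circles mark classes of under 20 cells. Atf3 climbs at every step in each run, to 981, 953 and 317, and Batf3 shows no common direction.

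Ordered by mean over runs, Atf3 was 711 ± 223 CPM (SD, n = 3 runs) in Ccl3 Ccl4-high cells, 80.3 ± 42.2 in disease-associated cells, 39.8 ± 26.7 in MHC class II-high cells and 32.5 ± 28.2 in border macrophages. Interferon-responsive cells had 28.9 ± 6.99, cells with Emp3, Fxyd5 and Tnfsf13b 28.7 ± 18.8, reference microglia 17.7 ± 5.15, cycling cells 4.81 ± 8.33 and cells with astrocyte transcripts 3.19 ± 3.79. Of the neighbours in this order, the first and second and the reference and cycling cells were apart by more than the larger SD, and the others were not. Border macrophages came first for Fos (266 ± 335) and Ccl3 Ccl4-high cells for Jun (691 ± 616), Junb (999 ± 466) and Jund (527 ± 321). Cycling cells came last for Fos, with 0 UMIs in each run, and for Junb (249 ± 195) and Jund (173 ± 124). For Fos, 3 UMIs in cycling cells would be 10.8, 34.0 and 28.7 CPM. In runs 1 and 2 that exceeds the reference level, so the 0 UMIs there do not place these cells below it. No neighbours in the orders of Fos, Jun, Junb and Jund were apart by more than the larger SD. Batf3 ranged from 64.5 ± 34.7 in MHC class II-high cells to 26.0 ± 8.93 in cycling cells, and 1 pair of neighbours was apart, Ccl3 Ccl4-high cells at 47.9 ± 8.74 and disease-associated cells at 36.5 ± 10.2.

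Xist-positive and Y-positive reference microglia, a split by sex-linked RNA of cells pooled from both sexes, gave 0 of 6 tested members past the threshold, beside 0.709% of all genes. Jun came nearest: it read 95.4, 186 and 1027 CPM in Xist-positive and 104, 197 and 1266 in Y-positive cells of runs 1, 2 and 3. It was lower in Xist-positive cells in 3 of 3 runs, by 0.19 ± 0.05 on the log2 scale (edgeR, unadjusted p = 0.000398, adjusted p = 0.0535). Over the alternatives its adjusted p ran from 0.00207 without run 1 to 1.00 without the run as block. The share of cells with at least 6 early UMIs in run 3 was 24.3% in Xist-positive and 27.9% in Y-positive cells, and its part in the Jun difference was not tested beyond the value without such cells, a log2 difference of -0.18 (adjusted p = 0.115). Batf3 was the second member with an unadjusted p under 0.05, at 0.0298 (adjusted p = 0.415), and DESeq2 called 0 members. Without run 1, Jun (-0.23, adjusted p = 0.00207), Fos (-0.43, 0.0351) and Batf3 (-0.29, 0.0262) passed, and without run 2 Jun (0.00752) and Fos (0.0468) did. Both of these fits took their spread wholly from the trend over all genes. Fos is not among the members tested over all runs. Which animals entered which run is not known, so sex and animal cannot be told apart.

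Genes whose pattern over populations was most like a member were ranked by Pearson r over 18 sums (6 populations in 3 runs, centred per run) among 5975 genes. For Fos these were Marcksl1 (0.91), Hivep2 (0.89), Il1b (0.89), Dusp1 (0.88) and Neat1 (0.87). Junb was followed by Btg2 (0.90) and Herpud1 (0.88), and Jun by Rin2 (0.86) and Hivep3 (0.82). The nearest to Atf3 were Slc15a3 (0.91), Plek (0.90), Mat2a (0.89), Pdgfa (0.88) and Nfe2l2 (0.87), and the nearest to Batf3 were Fmnl1 (0.84), Ywhaz (0.83) and Irf8 (0.81). The sums share libraries and depth, and for Fosb and Fosl2, with means of 3.14 and 9.67 CPM, the ranking rests on few UMIs.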

How the data were processed

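The authors deposited 10x Genomics tables of raw counts, 1 UMI count per gene and barcode for each of 3 runs, with no normalization. Per the submitters' processing notes, mm10, Cell Ranger and Seurat 4.0 were used. Per the file headers, the matrices came from software version 3.0.2 (run 1) and 3.1.0 (runs 2 and 3). Barcode selection, annotation, chemistry and use of strand are not given in the sources used here. Since it is not stated which end of the RNA was read, levels were not ranked between genes.

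Barcodes numbered 7255, 6895 and 6226. The filters and 16 marker gates, applied in order, were set as stated in the report. The gates count distinct markers with a UMI, or UMIs of the markers, and 7 of 8 disease markers were used in practice. Kept cells summed to 33547705, 24534691 and 24073809 UMIs. No doublet caller was run, and doublets were weighed by barcodes that hold Xist beside Y-linked UMIs. Sums of UMIs for each population in each run were tested by edgeR 4.0.16 (TMM, filterByExpr, glmQLFTest, threshold 0.05), with the run as block because populations of a run share a library. Deviations of populations from their means correlated with those of the reference cells of the same run at r 0.136 to 0.264. DESeq2 1.42.0 and the settings below were alternatives. The early-rich comparison was designed with 1 cut for all runs, and the cut within each run is led with because of its lower false-call share in simulated data. All simulations used 1 common spread for all genes and the same change in every run, so shares in the real data may differ. In simulated data the fit recovered 68.8% of 2-fold and 95.6% of 4-fold changes over 4411 genes for Ccl3 Ccl4-high cells, with 3.85% false calls. For the cut within runs it recovered 71.0% and 93.9% over 10751 genes.

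Genes named are the 8 members and, per list and comparison, at most 4 that passed with the largest change and at least 20 CPM, and the 5 most alike per member. For differences between runs, Egr1, Btg2 and Ier2 were named after their values were seen. Members and lists were chosen with earlier results of these data known. Cells were thinned at random with a fixed seed. Python 3.11.15, NumPy 2.4.6, pandas 2.3.3, SciPy 1.17.1 and R 4.3.3 were used.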

Additional observations from a re-analysis of the deposited data

Results flagged for a closer look

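Barcodes that missed the filters on UMIs, genes or mitochondrial share were used in no comparison, and they numbered 262, 175 and 148 in runs 1, 2 and 3. Several members lay above the level of 3 UMIs there. In run 1 the levels were 6.74 CPM for Fos, 52.3 for Jun, 33.7 for Junb, 174 for Jund, 6.74 for Atf3 and 23.6 for Batf3. Run 2 gave 98.2 for Jun, 87.3 for Junb, 153 for Jund and 32.7 for Batf3. Run 3 gave 79.0 for Fos, 685 for Jun, 329 for Junb, 382 for Jund and 39.5 for Batf3. Run 3 was highest for Fos, Jun, Junb and Jund in these barcodes too, and what they hold was not tested. Batf3 had 6 UMIs in run 2 and 6 in run 3, so its levels there could not be told apart.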

How the results depend on the processing

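Fos in border macrophages and Atf3 in Ccl3 Ccl4-high cells kept direction and call in 12 of 12 alternatives each. Other member calls changed under some settings as follows, and the cause was not tested. Without the replicate block, members called went from 3 to 0 for MHC class II-high and from 5 to 1 for Ccl3 Ccl4-high cells, and genes called to 731 for border macrophages, 419 for disease-associated, 150 for Ccl3 Ccl4-high cells and 5 for Xist against Y. Without a filter on low counts, members called were 2 in border macrophages and 1 in the Xist comparison, and genes called 181 in interferon-responsive cells and 128 in the Xist comparison. With at least 2000 UMIs and at most 5% mitochondrial UMIs, members called were 1 in MHC class II-high cells, 2 in early-high cells and 1 in the Xist comparison, and genes called 594 in disease-associated cells. Fitting only the 2 populations compared gave 231 genes for interferon-responsive, 1440 genes and 2 members for disease-associated and 808 genes for Ccl3 Ccl4-high cells, and a stricter gate 421 genes for disease-associated cells. DESeq2 Wald tests called 5 genes and 0 members in early-high cells and 21 genes in the Xist comparison, where DESeq2 size factors gave 1 member. Leaving out barcodes that hold Xist beside Y-linked UMIs, or doubling the count asked for, left 2 members each in early-high cells. Without early-high cells the Xist comparison called 50 genes, and members at least 2-fold higher in run 3 were 3.

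Leaving out 1 run at a time gave the following ranges, without replicate 1, 2 or 3. Border macrophages had 643 to 1260 genes and 1 to 2 members called. MHC class II-high cells had 679 to 1378 genes and 1 to 3 members. Disease-associated cells had 291 to 684 genes and 0 to 1 members, and Ccl3 Ccl4-high cells 151 to 336 genes and 3 to 4 members. Early-high cells had 7 to 55 genes and 0 to 3 members by the common cut, and 42 to 75 genes and 1 to 4 members within runs, the Xist comparison 44 to 144 genes and 0 to 3 members. Direction changed within runs: 72 genes were higher and 3 lower without replicate 1, and 62 and 2 without replicate 2. Without replicate 3, 8 were higher and 34 lower. Fosl2, at 1.07 by the common cut and 0.49 within runs, was at -0.069 within runs without run 3. Of the members' tests under the alternatives, 415 kept side and direction, 50 lost the threshold, 13 gained it, 28 with no call in either fit changed sign and 1 with a call reversed. Astrocyte-transcript, cycling and Emp3 Fxyd5 Tnfsf13b-positive cells had under 20 cells in a run, so their planned tests were not run.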
